A study of Mus musculus with 4 samples.

Results

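The Myb and Hbs1l locus was taken as the 280 kb of mouse chromosome 10 from 20820000 to 21100000 on the mm9 build. Its members were all listed peaks with a centre inside this window, and there were 6 of them among 10737 in both lists: 2 of 7327 anti-GFP peaks and 4 of 3410 anti-Myb peaks. The background was chromosome 10, with 367 peaks of the anti-GFP list and 173 of the anti-Myb list. The window, the Myb start at about 20880790 (transcribed on the minus strand, towards lower coordinates) and the Hbs1l start at about 21016000 were given with the locus definition and were not taken from an mm9 annotation. Both starts are approximate.

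Occupancy was profiled by CUT&RUN, in which a nuclease tethered to an antibody cuts DNA beside the bound protein, in MEL cells, a mouse erythroleukemia line. The anti-GFP list came from cells labelled Myb-GFP, and the labels do not say how or where GFP was joined to Myb, whether the cells were 1 clone, or how much of the Myb in them carried GFP. The anti-Myb list came from MEL cells without that label. Each list rests on 1 library, so no spread between replicates can be given and no test was made between antibodies. The other 2 libraries of the series, anti-GFP in MEL and a MEL library titled IgRab whose antibody field reads none, were not analysed here, so no control level stands beside these peaks. Every peak had a score of 1, so a peak has no height, and read depth is unknown.

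Myb encodes a DNA-binding transcription factor that keeps blood progenitors dividing and whose level falls as red cells mature. Hbs1l, its neighbour, encodes a GTPase that rescues stalled ribosomes. The DNA between these genes is known for erythroid enhancers that contact the Myb promoter and are bound by factors such as GATA1, LDB1 and KLF1. In human, variants between HBS1L and MYB are associated with red cell traits and fetal haemoglobin. The mouse enhancers are commonly named by their distance upstream of Myb. A table of enhancer positions was not used here, so the peaks are described by distance alone.

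The promoters are shown because 1 of the 6 peaks lay at the Myb start and none lay at the Hbs1l start. They are the 250 bases before each gene's start from RefSeq on GRCm38.p6, whose coordinates cannot be set beside the mm9 positions of the peaks. The Myb promoter is chr10:21160985-21161234 on the minus strand and the Hbs1l promoter chr10:21295729-21295978 on the plus strand. Capitals mark CpG dinucleotides.
Myb promoter: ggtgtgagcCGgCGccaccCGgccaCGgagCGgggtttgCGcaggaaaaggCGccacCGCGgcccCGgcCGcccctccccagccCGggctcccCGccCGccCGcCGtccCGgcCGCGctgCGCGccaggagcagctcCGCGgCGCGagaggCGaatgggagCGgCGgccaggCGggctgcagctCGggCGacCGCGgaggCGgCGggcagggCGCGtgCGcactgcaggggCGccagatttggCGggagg
Hbs1l promoter: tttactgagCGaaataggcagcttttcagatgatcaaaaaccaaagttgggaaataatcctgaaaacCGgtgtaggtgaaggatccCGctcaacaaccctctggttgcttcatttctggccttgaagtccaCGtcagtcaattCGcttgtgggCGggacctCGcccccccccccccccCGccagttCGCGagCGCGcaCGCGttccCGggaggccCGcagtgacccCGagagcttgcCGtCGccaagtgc

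The Myb promoter was 81.2% G and C and held 40 CpG dinucleotides. The median of 32851 RefSeq promoter entries of the same length was 52.4% G and C with 6 CpGs, and 99.1% of the entries had a lower GC content than Myb. The Hbs1l promoter was 58.4% G and C with 19 CpGs. The MYB core AACNG, the GATA core GATAA and the E-box CANNTG were searched on both strands, and N stands for any base. None of the 3 had a match in these 250 bases of the Myb promoter. Promoters of a like GC content were not set beside it, so this lack of matches has no matched background. The Hbs1l promoter held 2 AACNG and 2 CANNTG matches and no GATAA. Among all promoter entries 74.2% held AACNG, 22.6% held GATAA and 66.2% held CANNTG at least once. At least 2 matches, as at Hbs1l, were held by 42.0% for AACNG and 31.8% for CANNTG. Such short cores are thus found in many promoters, and a match is not a binding site. The sequences under the 6 peaks could not be searched, because no mm9 genome was used here. The 250 bases of the Myb promoter do not stand for the peak there, whose edges lay 50 and 386 bp upstream of the given start.

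The peaks are described from the Myb promoter outwards. The first anti-GFP peak lay at chr10:20880840-20881176 and began 50 bp upstream of the given Myb start, with its far edge 386 bp upstream and its centre at 0.218 kb. It was the only peak of either list at the start of Myb or of Hbs1l. It stood at row 3305 of the anti-GFP list, 45.1% of the way down. The nearest anti-Myb centre was 60.6 kb away, so the Myb promoter was listed with the anti-GFP antibody and not with the anti-Myb antibody. Without read counts, its absence from the anti-Myb list says only that no peak passed the authors' unstated threshold there, not that Myb was absent from it.

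The second anti-GFP peak, at chr10:20941553-20941889, was centred 60.9 kb upstream of Myb. The anti-Myb peak at chr10:20941405-20941717 was centred 60.8 kb upstream and overlapped it. This was the only region of the locus that both antibodies listed. The shared stretch, chr10:20941553-20941717, was 165 bp long, which is 48.96% of the anti-GFP peak and 52.7% of the anti-Myb peak. Their centres were 160 bp apart, and the anti-Myb centre was the nearer one to Myb. Over the 35 overlapping pairs of chromosome 10 this distance ranged from 4 to 290 bp with a median of 144 bp, and in 15 of the 35 the centres were at least as far apart. The site 60.8 to 60.9 kb upstream was thus an ordinary pair in its spacing.

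The other 3 anti-Myb peaks lay farther from Myb and had no overlapping anti-GFP peak. The peak at chr10:20948399-20948711 was centred 67.8 kb upstream of Myb. The peak at chr10:20961723-20962035 was centred 81.1 kb upstream. The peak at chr10:20988696-20989008 was centred 108 kb upstream of Myb and 27.1 kb before the Hbs1l start, which made it the member nearest to Hbs1l. All 4 anti-Myb peaks therefore lay between the genes, spaced by 7.0 kb, 13.3 kb and 27.0 kb in order from Myb towards Hbs1l. For these 3 peaks the nearest anti-GFP centre was that of the pair, at 6.83 kb, 20.2 kb and 47.1 kb.

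**Figure D1:**
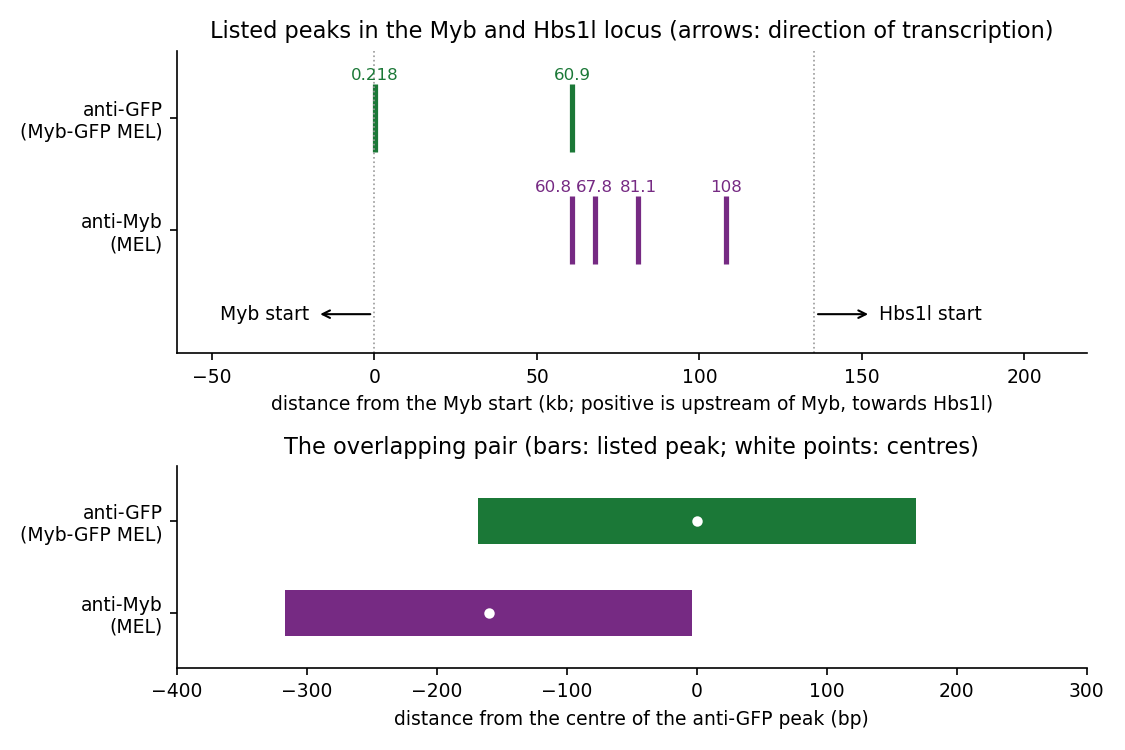
Top, the peaks of each list by the distance of their centres from the given Myb start in kb, positive towards Hbs1l, with arrows for the direction of transcription. The anti-GFP peaks are at 0.218 and 60.9 kb and the anti-Myb peaks at 60.8, 67.8, 81.1 and 108 kb. Bottom, the overlapping pair in bp from the anti-GFP centre, with bars for the listed peaks and white points for their centres, which are 160 bp apart.

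All 6 members had their centres in the 135 kb between the given starts of Myb and Hbs1l. On the Myb side the first 60.8 kb of the window, which starts downstream of the Myb start and takes in the gene, held no peak of either list. On the Hbs1l side the last 84 kb, from the Hbs1l start onwards, also held none. RefSeq on GRCm38 names 5 genes wholly between Myb and Hbs1l: the long non-coding RNAs Gm40608, Gm33619, Gm33671 and Gm33728, and the pseudogene Gm2467. No peak was assigned to them, since their mm9 positions were not used here.

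Beyond the window the nearest peaks were at least 106 kb from both given starts and had no overlapping partner. Distances to the far ends of the genes were not measured. Downstream of Myb, the nearest anti-Myb peak was at chr10:20774569-20774881, 45.3 kb outside the window and 106 kb past the Myb start. The nearest anti-GFP peak on that side was at chr10:20672474-20672810, 147 kb outside. On the Hbs1l side, an anti-GFP peak at chr10:21140512-21140848 lay 40.7 kb outside and 125 kb beyond the Hbs1l start. The next anti-Myb peak, at chr10:21199465-21199777, lay 99.6 kb outside. The 4 anti-Myb peaks of the locus were 167 kb from the next anti-Myb centre on the Myb side and 211 kb on the Hbs1l side. These are common gaps on chromosome 10, where the 172 gaps between neighbouring anti-Myb centres had a median of 165 kb, and 50% and 42.4% of them were at least as long as these.

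Chromosome 10 was cut into 443 windows of 280 kb, counted outwards from the locus, to set these counts against a background. The mean window held 0.828 anti-GFP and 0.391 anti-Myb peaks, 286 windows had no anti-GFP peak and 351 had no anti-Myb peak. At least 4 anti-Myb peaks were found in 12 windows (2.71%), the locus included, and 4 windows held more than 4. At least 2 anti-GFP peaks were found in 88 windows (19.9%). The locus was thus among the denser windows of its chromosome for anti-Myb and less so for anti-GFP. As densities, the locus held 14.3 anti-Myb peaks per Mb against 1.40 on the whole chromosome, a ratio of 10.2 with an exact 95% Poisson interval of 2.78 to 26.2. For anti-GFP the values were 7.14 and 2.97 per Mb, a ratio of 2.41 with an interval of 0.29 to 8.70, which includes 1. The intervals cover the counting of locus peaks only and treat peaks as independent. Peaks were clustered instead, with 351 windows empty of anti-Myb peaks while 12 held at least 4. The intervals are therefore too narrow, and neither is a test of its ratio. The locus was proposed with results of these lists in view, so the ratios are descriptions.

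**Figure D2:**
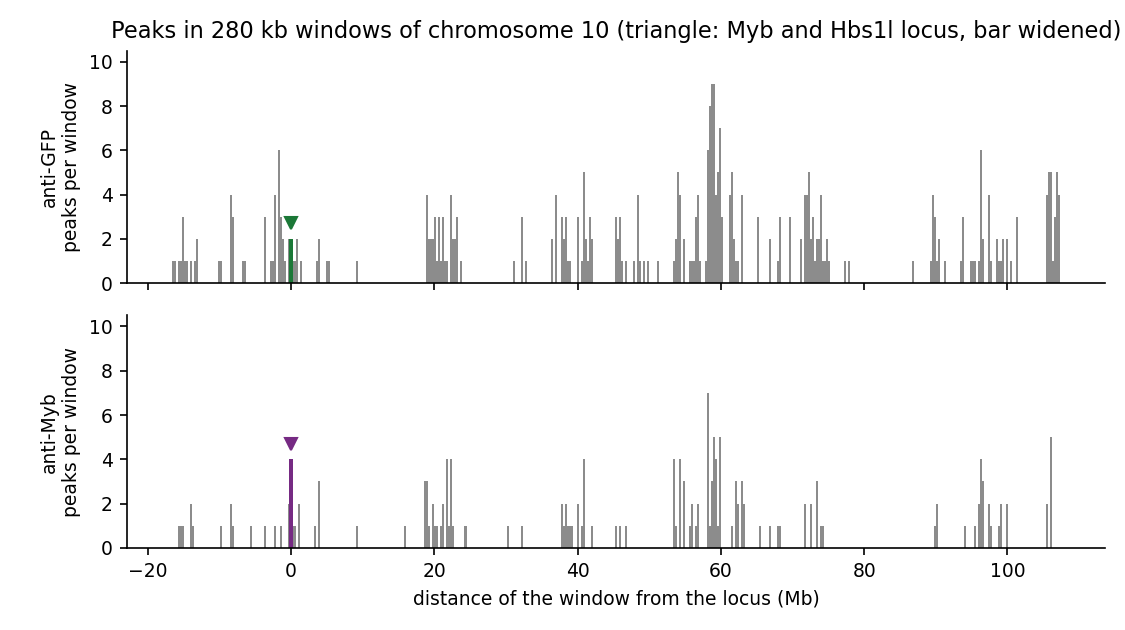
Number of anti-GFP (top) and anti-Myb peaks (bottom) in each 280 kb window of chromosome 10, by the distance of the window from the locus in Mb. The locus, marked by a triangle, holds 2 and 4 peaks. The 3 windows named as having the most peaks lie 58.2 to 59.1 Mb away, and a window 59.9 Mb away ties with the last of them.

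The windows on either side of the locus were less occupied by anti-Myb peaks. The adjacent window on the Myb side, from 20540000 to 20820000, held 2 anti-GFP and 2 anti-Myb peaks. The adjacent one on the Hbs1l side, from 21100000 to 21380000, held 1 of each. None of these peaks overlapped a peak of the other list. The 3 windows of chromosome 10 named as having the most peaks in both lists together were all near 79 to 80 Mb. They started at 79900000, with 9 anti-GFP and 5 anti-Myb peaks, at 79060000, with 6 and 7, and at 79620000, with 9 and 3. The window starting at 80740000, with 7 and 5, tied with the last of these and was left out only by its higher start.

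The locus had more anti-Myb than anti-GFP peaks, although the anti-GFP list of chromosome 10 is the longer one. Of the 443 windows, 28 (6.32%) had more anti-Myb than anti-GFP peaks, and in 7 (1.58%) the excess was at least 2, as here. Only 170 of the 443 windows held any peak, and the empty ones could not show an excess, so these shares are low for that reason too. Among the 12 windows with at least 4 anti-Myb peaks, 4, the locus included, had more anti-Myb than anti-GFP peaks. The number of anti-GFP peaks in the 12 ranged from 1 to 9 with a median of 4.5. The locus, with 2, was 1 of 3 among the 12 with no more than 2 anti-GFP peaks. The difference between lists was not tested, since each antibody had 1 library.

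The 4 anti-Myb centres spanned 47.3 kb. Of the 170 runs of 4 consecutive anti-Myb peaks on chromosome 10, 3 (1.76%) were this short, and the median run spanned 802 kb. In the whole anti-Myb list 51 of 3344 runs (1.53%) were as short. The other runs on chromosome 10 had centres from 39844725 to 39862023, a span of 17.3 kb, and from 79144664 to 79175552, a span of 30.9 kb. Neither had an anti-GFP centre inside it, whereas the run upstream of Myb had 1. Counting runs of 4 was chosen after the values were seen.

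Of the 4 anti-Myb peaks of the locus, 1 (25%, exact 95% binomial interval 0.63% to 80.6%) overlapped an anti-GFP peak by at least 1 bp. On chromosome 10 the share was 35 of 173, or 20.2%, and in the whole anti-Myb list 17.8%. Of the 2 anti-GFP peaks of the locus, 1 (50%, 1.26% to 98.7%) overlapped an anti-Myb peak, against 9.54% on chromosome 10 and 8.28% in the whole list. With so few members the intervals span both backgrounds and would do so for most outcomes. They cannot decide whether overlap at the locus differed from that of its chromosome. Within 10 kb, 2 of the 4 anti-Myb peaks had an anti-GFP centre, those 60.8 and 67.8 kb upstream of Myb, against 45.1% of the anti-Myb peaks of chromosome 10.

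The distances to the other list were also spread over the range of the chromosome. The median anti-Myb peak of chromosome 10 was 13.6 kb from the nearest anti-GFP centre. An anti-GFP centre was as near as that of the peak 60.8 kb upstream for 12.1% of these peaks. The corresponding shares were 41.0% for the peak at 67.8 kb, 55.5% for the one at 81.1 kb and 75.7% for the one at 108 kb. For anti-GFP the median distance to an anti-Myb centre was 70.8 kb, and 46.9% of the chromosome 10 peaks were as near as the peak at the Myb promoter. The locus thus held both near and far neighbours of the other list, in the range of its chromosome.

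**Figure D3:**
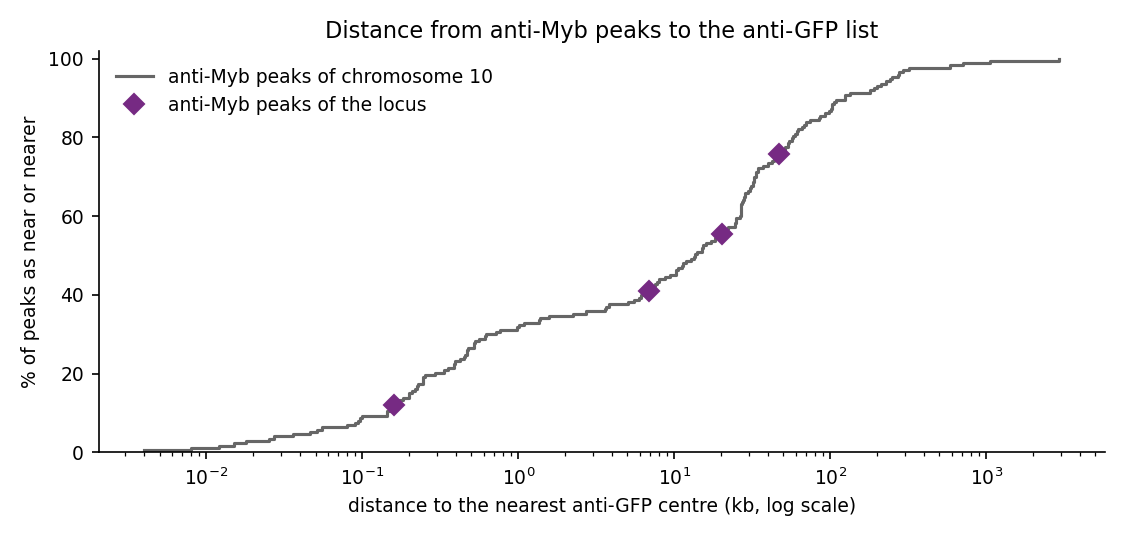
Cumulative share of the 173 anti-Myb peaks of chromosome 10 by distance to the nearest anti-GFP centre, in kb on a log scale. The diamonds are the 4 locus peaks, at 0.16, 6.83, 20.2 and 47.1 kb, spread along the curve from 12.1% to 75.7%.

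The files also gave each member a position in its list and a running number in its name. How the authors ordered the rows is not recorded, so a position is not a height. The anti-GFP peak of the shared site was row 369 of 7327, 5.04% of the way down, and came 11th of the 367 anti-GFP peaks of chromosome 10. The anti-Myb peak of the same site was row 508 of 3410, 14.9% of the way down, and came 21st of the 173 on chromosome 10. By mean position in both lists, 9.97%, the pair was number 3 of the 35 overlapping pairs of chromosome 10 and number 69 of the 607 pairs in all. The shared site upstream of Myb was thus the earliest member in each list.

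The other members stood later. The anti-Myb peak 108 kb upstream of Myb was row 962, 28.2% of the way down. The peak at 67.8 kb was row 1228, at 36.0%, and the peak at 81.1 kb was row 2734, at 80.2%. The order by row therefore did not follow the distance from Myb. The medians were 32.1% for the 4 anti-Myb members, against 56.4% on chromosome 10, and 25.1% for the 2 anti-GFP members, against 51.8%. Within the locus the positions ranged from 14.9% to 80.2% and from 5.04% to 45.1%, so the medians rest on widely spread values. In the first 10% of each list stood 1 of the 2 anti-GFP members and none of the 4 anti-Myb members, against 7.63% and 6.94% of the peaks of chromosome 10.

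**Figure D4:**
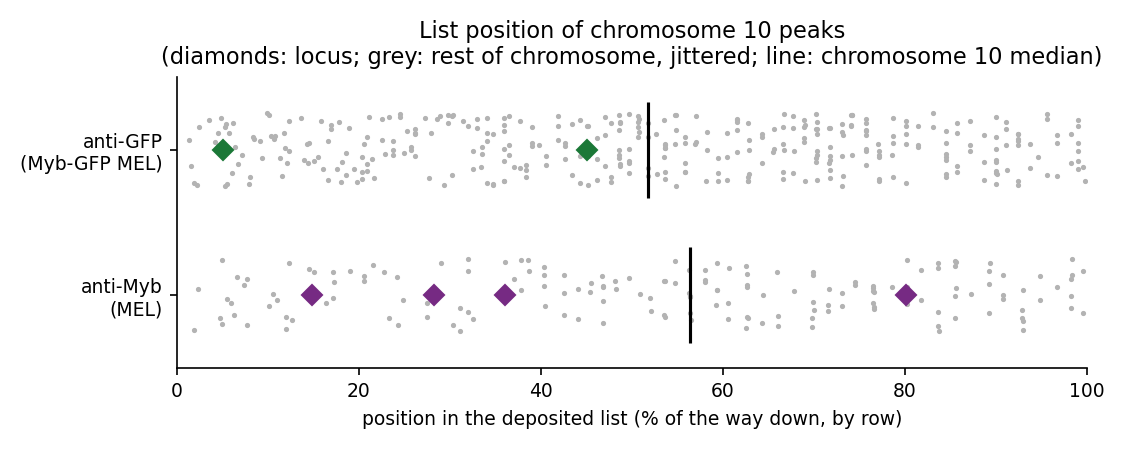
Position of the chromosome 10 peaks in each deposited list, as percent of the way down by row. Diamonds are locus peaks, grey points the rest of the chromosome with vertical scatter for visibility, and black lines the chromosome 10 medians of 51.8% and 56.4%. All members but the anti-Myb peak at 80.2% stand before the median of their list on chromosome 10.

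Among the members of each list, the running numbers in the names ran in the same order as the rows, and what they count is not recorded. They were 10 for the anti-GFP peak of the shared site and 226 for the one at the Myb promoter, where the highest number on chromosome 10 was 1548 for 367 listed peaks. For anti-Myb they were 22 at the shared site, 48 at 108 kb, 51 at 67.8 kb and 166 at 81.1 kb, where the highest was 321 for 173 listed peaks. As a share of the highest number on chromosome 10, the median member stood at 7.62% (anti-GFP) and 15.4% (anti-Myb). The 25.1% and 32.1% by row are shares of the whole list, so the scales differ and the values cannot be ranked against each other. No chromosome 10 median by running number was computed, so these shares have no background. The anti-GFP peak numbered 10 came 11th by row on chromosome 10, so the numbers were not a plain count of the rows from 1. What the unlisted numbers were is not recorded.

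Rows of chromosome 10 often followed one another in the files, and whether the order within such a block has a meaning was not tested. In the first 50% of the lists, where 5 of the 6 members stood, 63.1% of the anti-GFP and 57.5% of the anti-Myb peaks of chromosome 10 stood beside another row of that chromosome. In the second 50% the shares were 98.4% and 95%. The anti-Myb peak 81.1 kb upstream of Myb opened a block of 5 such rows, 2734 to 2738. The next row of that block, 2735, was the anti-Myb peak 99.6 kb outside the window on the Hbs1l side. The anti-GFP peak at the Myb promoter opened a block of 5, rows 3305 to 3309, and the anti-Myb peak at 67.8 kb stood in a block of 3. The peaks of the shared site and the anti-Myb peak at 108 kb stood alone between rows of other chromosomes.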

How the data were processed

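The values are the peak lists of 2 CUT&RUN libraries from MEL cells. The submitters' processing notes name the mm9 build, HOMER 4.10.3, the aligner STAR 2.7.9a, Trim Galore 0.6.6, deepTools 3.4.2, Picard 2.17.11 and SAMtools 1.11. How each was used, the threshold for a peak, the handling of duplicates and the control library were not given in these sources, and each decides which peaks are listed. The score deposited by the authors was 1 in every row. Each list had one peak width in the deposited coordinates, 337 bp (anti-GFP) or 313 bp (anti-Myb). Coordinates are printed 1-based.

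Distances, overlaps (at least 1 bp), list positions, windows and exact (Clopper-Pearson) binomial and Poisson intervals were computed in Python 3.11.15 (SciPy 1.17.1, pandas 2.3.3, NumPy 2.4.6) and drawn with Matplotlib 3.10.9. Overlap counting was tested on simulated peaks. Densities on chromosome 10 used the span of 124 Mb between its outermost peaks. Every member, the nearest peaks outside the window and the 3 fullest windows are named, with the window tied for the last place. The members and comparisons were chosen with earlier results of these data known, so no p-value is given. The planned motif search covered promoters only.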

Additional observations from a re-analysis of the deposited data

How the results depend on the processing

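Of 32 alternatives, 30 left the counts within 1.5 times, and the shares, list positions and densities within their interval or spread. With centres required to lie within 100 bp, the shared site was lost and the share with a partner was 0% for both anti-GFP and anti-Myb members, against 4.36% and 9.25% on chromosome 10. As a share of the highest running number on chromosome 10, the median position was 7.62% for anti-GFP and 15.4% for anti-Myb members. By row of the whole list, a different scale, it was 25.1% and 32.1%. The values lay within a spread between members of 28.3 percentage points in each list. The first 50% of each list held 2 anti-GFP and 3 anti-Myb members, and a window 50 kb wider on each side held 3 and 5. Shifting the windows by 50% of their length left 9 with at least 4 anti-Myb peaks and 1 with more than 4. None of the shifted windows was the locus itself, since the shift split it between neighbouring windows. Intervals over 2 and 4 peaks are wide, so the stability of the shares is weakly tested. No paired analysis was possible because each antibody had 1 library and no test was made.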
